A study of Mus musculus with 24 samples.

Results

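The 10 receptors described here were listed by their gene symbols in all 4 deposited count tables: Stab1, Stab2, Marco, Msr1, Cd36, Scarb1, Scarf1, Cd163, Mrc1 and Lyve1. They are 10 of the 48820 entries of each table and were taken because they are scavenger or endocytic receptors that Kupffer cells (KCs, the resident macrophages of the liver) and sinusoidal endothelial cells (ECs) share or divide between them. The 24 mouse libraries fall into 8 groups of 3, all of strain C57BL/6 in the labels, which the methods give as C57BL/6J. Liver macrophages (a CD45+Ly6C-F4/80+CD64+ gate) and hepatic ECs (a CD45-CD31+ gate) were sorted at 8 to 10 weeks of age from control mice and from Gdf2/Bmp10 HSC-KO mice, and whole liver was taken at 12 weeks from mice of both kinds. In HSC-KO mice, Lrat Cre deletes floxed alleles of Gdf2 and Bmp10, the genes of the circulating ligands GDF2 (BMP9) and BMP10, in hepatic stellate cells (HSCs), so the sorted macrophages and ECs themselves are not the cells in which Cre acts. A further set of macrophages came from Smad4 fl/fl Vav1 Cre mice (Smad4 cKO), aged 8 to 10 weeks, in which Cre under the Vav1 promoter removes the signal transducer SMAD4 from all haematopoietic cells, and from Smad4FF mice without the deletion. The labels call the controls of the HSC-KO mice control or WT without giving their alleles, and they name no treatment.

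Scavenger receptors bind modified lipoproteins, polyanions, apoptotic material and other waste from the blood and carry them into the cell, usually through clathrin-coated pits. In the liver this work is done on the wall of the sinusoid by KCs, which phagocytose particles, and by the fenestrated sinusoidal ECs, which take up soluble macromolecules. Stabilin-1 and stabilin-2 are the large multidomain receptors for which sinusoidal ECs are best known, whereas MARCO and CD163 are classical macrophage receptors, and the mannose receptor MRC1 belongs to both.

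The libraries held 60911527 to 110879155 counts. Levels are given as CPM, the usual depth-scaled counts, with TMM factors set within each of the 4 tables, so values set side by side from different tables are scaled separately. In liver, where the deleted ligand genes could be checked, Gdf2 was at 9.38 to 22.5 CPM in the control libraries and at 2.12 to 3.85 in the HSC-KO libraries, and Bmp10 was at 1.99 to 3.28 against 0.0938 to 0.262. Smad4 was at 35.3 to 42.8 CPM in Smad4FF macrophages and at 12.6 to 17.2 in Smad4 cKO macrophages. The 12 macrophage markers summed to 29006 to 49793 CPM in the sorted macrophages, and the 12 pan-endothelial markers to 15980 to 18259 in the sorted ECs. The 7 KC markers fell together, from 28536 to 30388 CPM in control macrophages to 42.4 to 221 in HSC-KO macrophages and from 25478 to 31435 in Smad4FF macrophages to 884 to 970 in Smad4 cKO macrophages, with all 7 of 7 lower without overlap in both. Endothelial transcripts were not absent from the macrophages: the pan-endothelial sum was 68.8 to 326 CPM in control, 58.0 to 129 in HSC-KO, 593 to 2143 in Smad4FF and 1642 to 2094 in Smad4 cKO macrophages. Among the ECs, replicate 1 of the HSC-KO group stood apart, with a chi-square per gene of 435 and 494 against the other two and 169.5 between those, and the results in ECs are given with and without it. It is from animal B5, which also gave replicate 3 of the HSC-KO macrophages. In the HSC-KO livers, replicate 3 stood apart in the same measure (401 and 459.6 against 96.8), and replicate 2 of the Smad4FF macrophages held the 593 CPM of endothelial markers, against 2003 and 2143 in the others.

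The sequence just upstream of the start site is shown for the stabilins, which moved in opposite directions in HSC-KO macrophages, and for Marco, which was nearly lost there, each as the 250 bases before the RefSeq start in GRCm38.p6, 5′ to 3′ on the strand of the gene. Stab1 lies on the minus strand (chr14:31168642-31168891), Stab2 on the minus strand (chr10:87007943-87008192) and Marco on the minus strand (chr1:120505025-120505274).
Stab1: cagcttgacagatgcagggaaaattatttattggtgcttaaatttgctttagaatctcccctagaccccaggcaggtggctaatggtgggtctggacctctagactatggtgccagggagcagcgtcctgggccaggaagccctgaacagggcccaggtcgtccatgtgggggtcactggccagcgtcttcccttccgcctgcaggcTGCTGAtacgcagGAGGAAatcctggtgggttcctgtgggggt
Stab2: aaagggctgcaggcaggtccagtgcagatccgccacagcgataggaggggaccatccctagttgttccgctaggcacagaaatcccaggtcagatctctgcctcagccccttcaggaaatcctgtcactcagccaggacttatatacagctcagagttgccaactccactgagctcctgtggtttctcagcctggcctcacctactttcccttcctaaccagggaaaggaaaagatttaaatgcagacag
Marco: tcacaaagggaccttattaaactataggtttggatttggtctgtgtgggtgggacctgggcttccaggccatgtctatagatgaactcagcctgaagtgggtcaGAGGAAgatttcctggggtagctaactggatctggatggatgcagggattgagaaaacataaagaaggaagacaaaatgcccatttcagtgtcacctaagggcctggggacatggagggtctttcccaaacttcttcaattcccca
Capitals mark matches, on either strand, to 1 of 4 short motifs. The first, GGCGCC, is an element bound by the SMAD proteins of the BMP pathway. The second, GATAAG, is bound by factors of the GATA family. The third, GAGGAA, is the core bound by PU.1, the master factor of the myeloid lineage. The fourth, TGCTGA, is the half-site of the MAF factors. No match overlapped another. Stab1 held the MAF half-site at position -43 and the PU.1 core at -30, counted back from the start site, Marco held the PU.1 core at -146, and the Stab2 window held none of the 4. Of the other windows, that of Mrc1 (chr2:14229164-14229413, plus strand) held the PU.1 core on the opposite strand at -180, -167 and -35, that of Cd36 (chr5:17835897-17836146, minus strand) held the MAF half-site at -11, and that of Cd163 (chr6:124304401-124304650, plus strand) held none. Of all 32851 windows of this length, 9.59% held the SMAD element, 6.55% the GATA motif, 23.3% the PU.1 core and 16.1% the MAF half-site. The windows of Msr1, Scarb1, Scarf1 and Lyve1 were not analysed here. A match of this kind is a description of the letters, not of binding.

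The first question was which receptors the 2 control populations share and which they divide. Control ECs held mostly Stab1, Stab2, Lyve1, Cd36 and Scarf1, control macrophages held nearly all of Marco and Cd163, and Msr1, Scarb1 and Mrc1 were present in both. In edgeR's quasi-likelihood test of control macrophages against control ECs, 8 of the 10 receptors were differentially expressed genes (DEGs, called here when the p adjusted over all genes was below 0.05 and the change exceeded 1 on the log2 scale in size), 3 of them higher in macrophages and 5 higher in ECs, against 35.9% of the 16160 genes tested. The groups did not overlap for 9 of the 10, against 62.3% of all genes tested. Cell type, sort and count table cannot be told apart in this comparison.

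Stab1, a receptor for acetylated lipoproteins and SPARC, was at 1701, 1555 and 1681 CPM in the 3 control EC libraries and at 68.4, 72.0 and 44.2 in the 3 control macrophage libraries. All EC values lay far above all macrophage values (log2 fold change macrophages over ECs -4.55, SE 0.24, edgeR adjusted p = 1.3e-05). Stab2, a hyaluronan clearance receptor, was at 2401, 2155 and 2462 CPM in ECs and at 209, 278 and 205 in macrophages. Its difference was smaller, -3.15 (SE 0.20, edgeR adjusted p = 2.4e-05), so that control macrophages held more Stab2 than Stab1 in each of the 3 libraries, at 3.06 to 4.64 times its CPM. Lyve1, a hyaluronan receptor known from lymphatic and sinusoidal endothelium, was at 621, 727 and 691 CPM in ECs against 7.74, 13.8 and 4.19 in macrophages (-6.11, SE 0.49, edgeR adjusted p = 7.2e-05). In those macrophage libraries the pan-endothelial markers were at 0.105 to 1.75% of their EC level, and that share of the Lyve1 of ECs would be 0.644 to 10.7 CPM, which is 8.26 to 170% of the Lyve1 measured there. The same share of Stab2 came to 1.06 to 13.8% of the Stab2 measured in them, and that of Stab1 to 2.28 to 39.3%. With Smad4FF macrophages, which held more endothelial transcripts, in place of the control macrophages, the difference was -2.75 for Lyve1 and -3.02 for Stab1, both still past the edgeR threshold.

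Marco, the collagenous class A receptor of macrophages, was at 406, 240 and 489 CPM in control macrophages and at 0.220, 0.194 and 0.326 CPM in control ECs (18, 12 and 24 counts). The log2 difference was 10.75 (SE 0.43, edgeR adjusted p = 4.5e-06). Cd163, the haemoglobin-haptoglobin receptor, gave a like picture with 507, 445 and 323 CPM in macrophages against 0.500, 0.146 and 0.258 in ECs (10.61, SE 0.52, edgeR adjusted p = 1.0e-05). Macrophage markers in the control EC libraries were at 0.0995 to 0.139% of their level in macrophages, and that share of the macrophage Marco would be 0.365 to 0.509 CPM, above what the ECs held.

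Cd36, which binds fatty acids and oxidised lipoproteins, was at 835, 879 and 631 CPM in ECs and 72.2, 110 and 89.4 in macrophages (-2.92, SE 0.23, edgeR adjusted p = 7.0e-05). Scarf1, a class F receptor described on endothelium, was at 127, 137 and 158 CPM in ECs and 37.5, 30.4 and 38.1 in macrophages (-1.81, SE 0.15, edgeR adjusted p = 8.0e-05). Mrc1, the mannose and collagen receptor, was at 1328, 1533 and 1503 CPM in ECs and 707, 743 and 492 in macrophages. This was a difference of -0.98 (SE 0.20, edgeR adjusted p = 0.0055), under the size set for a DEG. Scarb1, the HDL receptor SR-BI, was higher in macrophages, at 409, 366 and 363 CPM against 227, 185 and 235, and its log2 difference of 1.002 (SE 0.15, edgeR adjusted p = 0.0012) lay at the limit set for a DEG. Msr1, the class A receptor for acetylated LDL, overlapped between the populations, with 289, 241 and 235 CPM in macrophages and 177, 282 and 143 in ECs (0.53, interval 0.02 to 1.04 as 1.96 SE to each side, edgeR adjusted p = 0.13). Without replicate 2 of the control ECs, which held the 282, it was 0.86 (edgeR adjusted p = 0.011).

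Per kilobase of exon, which allows genes to be compared with each other, the order in control ECs was Stab2 (229 ± 16.4 CPM per kb, SD, n = 3), Lyve1 (200 ± 14.2), Mrc1 (196 ± 13.03), Cd36 (187 ± 32.4), Stab1 (137 ± 7.34), Scarf1 (41.7 ± 4.45), Msr1 (27.1 ± 9.75) and Scarb1 (21.7 ± 2.74). The first 4 overlapped each with its neighbour, as did Msr1 and Scarb1, and Marco and Cd163 were at 0.110 and 0.0475. In control macrophages the order was Marco (204 ± 65.5), Mrc1 (106 ± 23.8), Cd163 (81.2 ± 18.7), Scarb1 (46.5 ± 3.34), Msr1 (41.9 ± 4.95), Stab2 (27.5 ± 5.33), Cd36 (26.3 ± 5.78), Scarf1 (12.7 ± 1.38), Stab1 (6.25 ± 1.62) and Lyve1 (3.09 ± 1.80). Neighbours overlapped for Mrc1 and Cd163, Scarb1 and Msr1, Stab2 and Cd36, and Stab1 and Lyve1. The lengths are exon unions of the GENCODE annotation, in which Stab1 (10288 bases) and Stab2 (8757) are the longest.

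**Figure D1:**
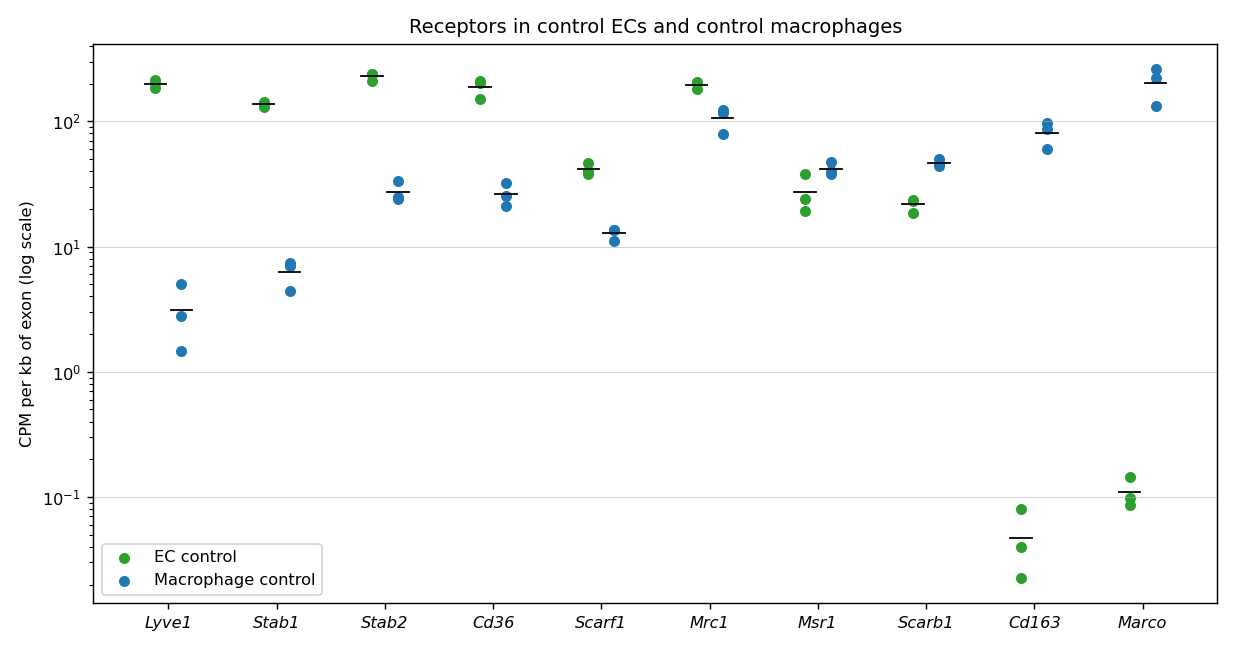
CPM per kilobase of exon (log scale) of each receptor in the 3 control EC libraries (green) and the 3 control macrophage libraries (blue), ordered by their ratio, with points for libraries and lines for means. Lyve1, Stab1, Stab2, Cd36 and Scarf1 sit higher in ECs, Marco and Cd163 sit far higher in macrophages, and the Msr1 points of the populations overlap.

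The next question was what happened to the receptors of liver macrophages when Gdf2 and Bmp10 were deleted in stellate cells. Stab1 rose 14.8-fold in mean CPM and became one of the 2 highest of the 10 receptors per kilobase, whereas Marco was nearly lost and Stab2, Lyve1, Cd163 and Msr1 fell. Scarb1 and Scarf1 fell by a little less than the size set for a DEG, and Cd36 and Mrc1 did not pass the test. In all, 6 of the 10 receptors were DEGs, 1 higher and 5 lower, against 11.7% of the 16337 genes tested. A further 2 passed the adjusted p alone (19.2% of all genes did), and the 3 against 3 libraries did not overlap for 8, against 40.3% of all genes. The median log2 fold change of the 10 was -1.18, beside 0.04 over all genes tested. Markers of several cell types moved as well. The macrophage marker sum was 37341 to 38328 CPM in control and 31577 to 34354 in HSC-KO macrophages, with 6 of 12 markers lower and 2 higher without overlap. The sum of 6 hepatocyte markers was 3372 to 4451 against 4705 to 5986 CPM (1 of 6 higher), that of 4 monocyte and neutrophil markers 6.48 to 11.03 against 38.1 to 87.7 (1 higher, 1 lower) and that of 4 lymphocyte markers 9.79 to 18.8 against 28.6 to 90.4 (2 higher). For 3 lymphatic endothelial markers the sum was 0.664 to 1.13 against 1.61 to 8.09 CPM (2 higher). The part of all these markers in the receptor changes was not tested. In sorted bulk samples, fewer cells expressing a receptor and less RNA per cell cannot be told apart, here and in the comparisons that follow.

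Of the stabilins, Stab1 went from 68.4, 72.0 and 44.2 CPM in control macrophages to 1167, 867 and 706 in HSC-KO macrophages, each far above the highest control. The log2 fold change was 3.89 (SE 0.27, edgeR adjusted p = 0.00014), and with the pan-endothelial markers as a covariate it was 3.67. Stab2 went the other way, from 209, 278 and 205 CPM to 32.6, 18.9 and 35.5 (-2.99, SE 0.26, edgeR adjusted p = 0.00034). The ratio of Stab1 to Stab2 in CPM was thus 0.215 to 0.327 in control macrophages and 19.9 to 45.9 in HSC-KO macrophages.

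**Figure D2:**
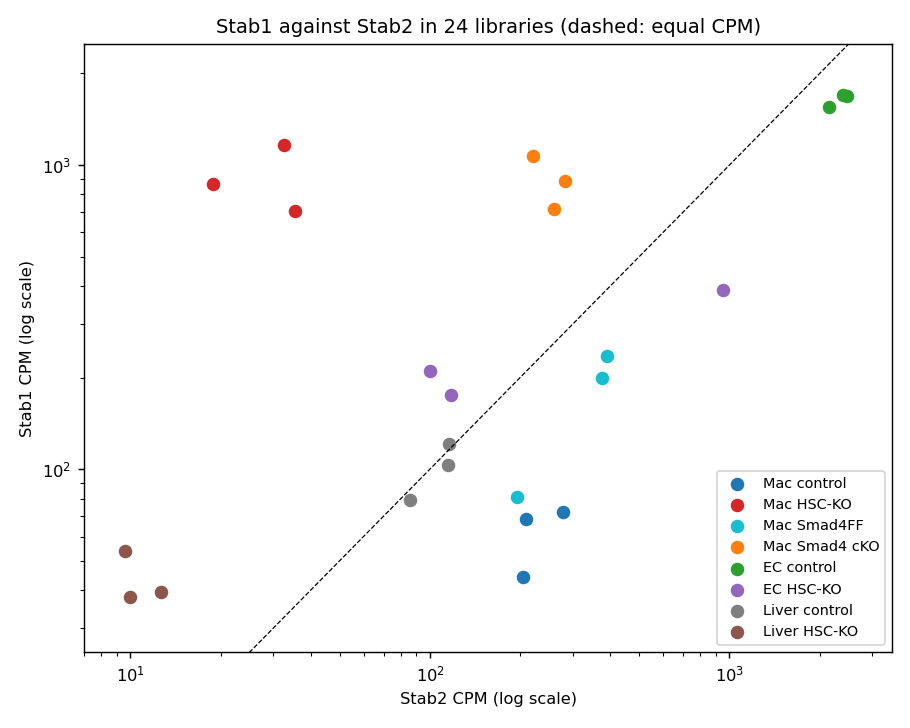
Stab1 CPM against Stab2 CPM (both log scales) in all 24 libraries, coloured by group, with a dashed line where the CPM are equal. The HSC-KO macrophages lie far above the line, at ratios of 19.9 to 45.9, whereas control macrophages lie below it and control ECs, at 0.683 to 0.722, lie high and close to it.

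Among the macrophage receptors, Marco went from 406, 240 and 489 CPM to 1.93, 0.828 and 8.15, with no overlap and about 104 times between the means (log2 fold change -6.70, SE 0.89, edgeR adjusted p = 0.0021). The highest of these HSC-KO values was that of animal B5, and without that library the fold change was -8.10. Cd163 went from 507, 445 and 323 CPM to 174, 89.3 and 110 (-1.77, SE 0.28, edgeR adjusted p = 0.0043). Msr1, at 289, 241 and 235 CPM in controls, stood at 104, 96.6 and 92.1 in HSC-KO macrophages (-1.39, SE 0.13, edgeR adjusted p = 0.00037), with a spread between libraries much smaller than the change. Msr1 and Cd163 thus stayed well above Marco in CPM in every HSC-KO library. Mrc1 was at 829, 1025 and 650 CPM against 707, 743 and 492, overlapping groups with a log2 difference of 0.37 (interval -0.06 to 0.80, edgeR adjusted p = 0.29).

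Of the receptors for lipoproteins and fatty acids, Scarb1 fell from 409, 366 and 363 CPM to 198, 155 and 231 (-0.96, SE 0.16, edgeR adjusted p = 0.0062). Scarf1 fell to a like degree, from 37.5, 30.4 and 38.1 to 16.9, 19.9 and 17.1 CPM (-0.97, SE 0.15, edgeR adjusted p = 0.0038). The groups did not overlap for either. Cd36 was at 72.2, 110 and 89.4 CPM against 84.1, 102 and 44.1 (-0.24, interval -0.83 to 0.34, edgeR adjusted p = 0.63), and without the library of animal B5 its sign turned (0.04). Lyve1 was low throughout, at 7.74, 13.8 and 4.19 CPM in control and 1.52, 0.210 and 1.35 in HSC-KO macrophages (-3.07, SE 0.74, edgeR adjusted p = 0.025). Its call was lost (edgeR adjusted p = 0.057 to 0.081) without replicate 2 of the controls or replicate 1 or 3 of the HSC-KO group, with the pan-endothelial markers as a covariate (adjusted p = 0.097) and with Xist as a covariate (0.061), and it passed in 7 of 13 alternatives. The endothelial share of the libraries moved with it, as given above, and its part in the fall of Lyve1 was not tested further.

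**Figure D3:**
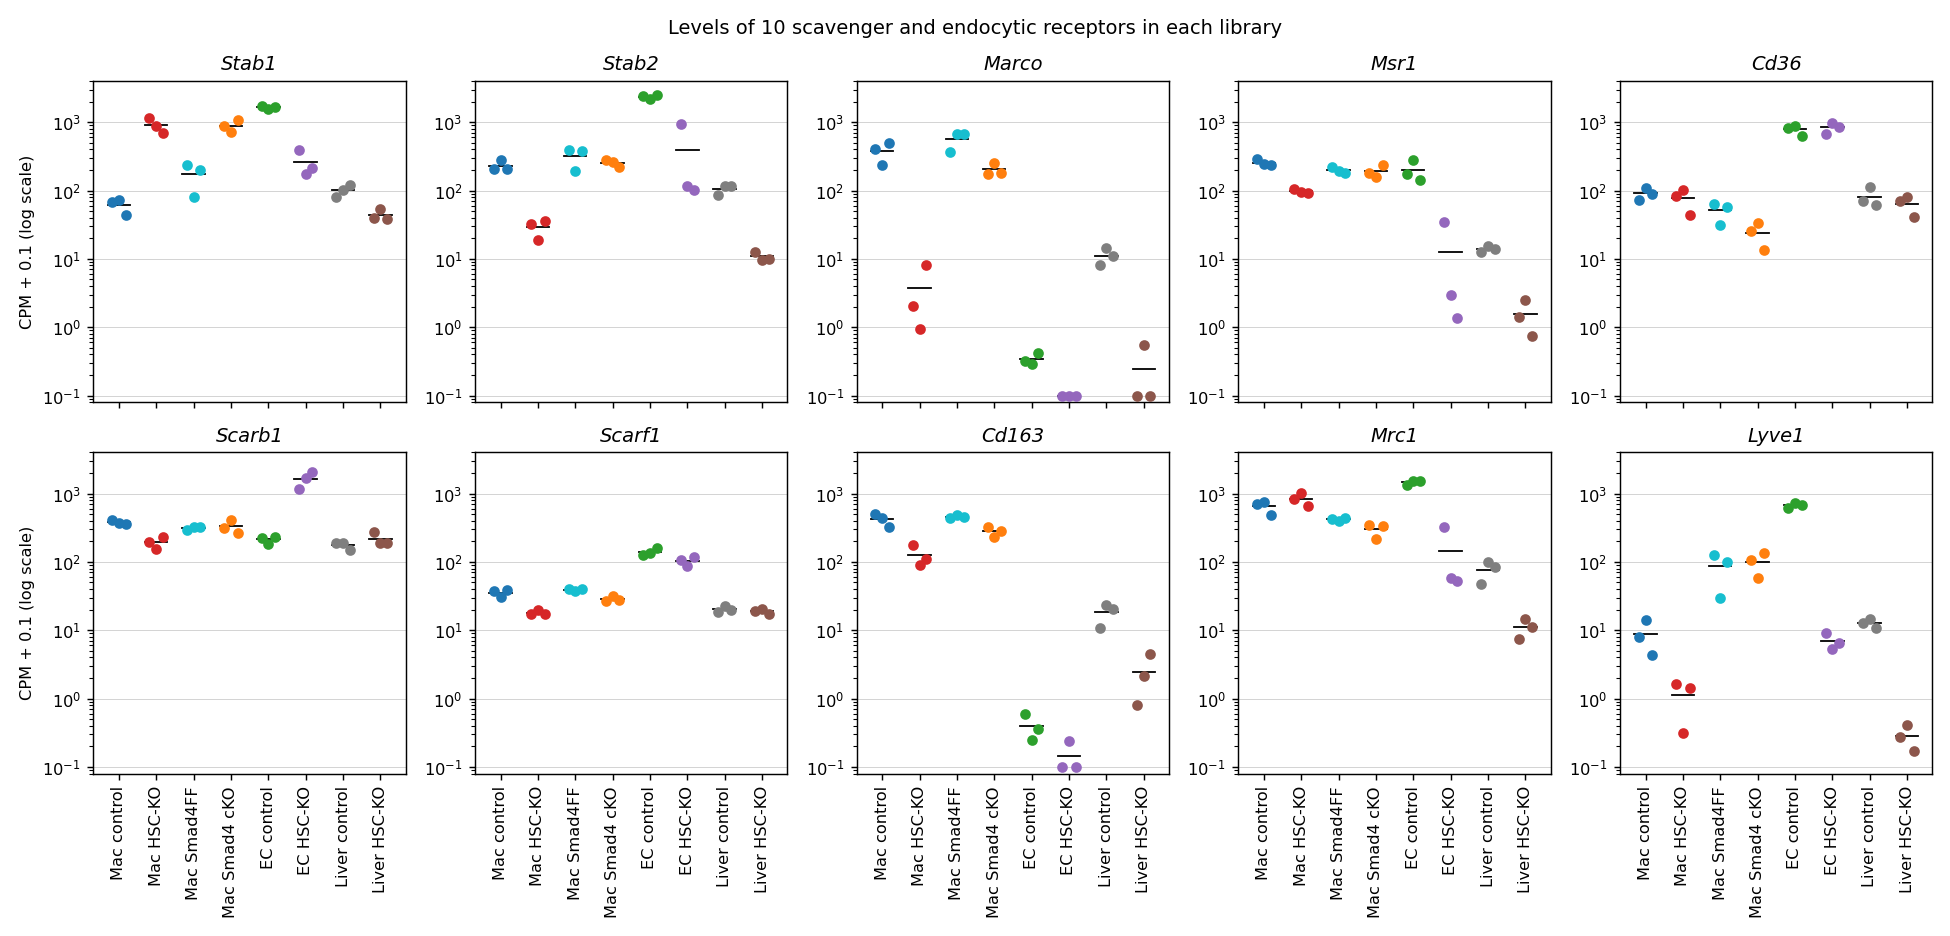
CPM plus 0.1 (log scale) of the 10 receptors in every library, by group, with points for the 3 replicates and lines for means; Mac stands for macrophages. Stab1 is high in both kinds of knockout macrophages and low in HSC-KO ECs, Scarb1 is highest in HSC-KO ECs, and 1 HSC-KO EC library lies above the other two for Stab2, Mrc1 and Msr1.

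Removing SMAD4 from the blood lineage asked whether the same receptors change when the macrophages, and not the stellate cells, carry the deletion. Stab1 rose and Marco fell as DEGs, Cd163 fell 1.61-fold in mean CPM, and the other 7 did not pass edgeR's quasi-likelihood test. This was 2 DEGs of 10, 1 in each direction, against 5.43% of the 17517 genes tested, and 3 of 10 on the adjusted p alone, against 7.74%. The groups did not overlap for 5 of the 10, against 29.4% of all genes, and the median log2 fold change of the 10 was -0.39 beside 0.04 over all genes. The hepatocyte marker sum was 1490 to 1792 CPM in Smad4FF and 2936 to 5255 in Smad4 cKO macrophages, with 1 of 6 markers higher without overlap, and the macrophage marker sum was 42074 to 49793 against 29006 to 35976 CPM, with 6 of 12 markers lower and 2 higher. Their part in the receptor changes was not tested.

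Stab1 was at 235, 81.1 and 200 CPM in Smad4FF and at 888, 716 and 1067 in Smad4 cKO macrophages (log2 fold change 2.37, SE 0.38, edgeR adjusted p = 0.010). All knockout values were above all controls. The HSC-KO macrophages, scaled in a separate table, held 706 to 1167. The pan-endothelial markers of these libraries were at 2.38 to 9.46% of their EC level in Smad4FF and 8.12 to 11.04% in Smad4 cKO macrophages, and those shares of the Stab1 of ECs would make up 46.8 to 72.3% of the Stab1 measured in the controls and 10.7 to 20.4% of that in the knockouts. With these markers as a covariate the fold change was 2.16 (edgeR adjusted p = 0.0056), and without replicate 2 of the Smad4FF group, which held the fewest endothelial transcripts, it was 2.02. Stab2, at 391, 196 and 374 CPM in Smad4FF and 283, 260 and 221 in Smad4 cKO macrophages, overlapped (-0.33, interval -0.84 to 0.17, edgeR adjusted p = 0.53). The endothelial share would make up 27.5 to 54.7% and 73.5 to 79.8% of it. With that share taken off, 133 to 174 CPM (without TMM factors) were left in Smad4FF and 54.9 to 67.3 in Smad4 cKO macrophages, without overlap. That difference was not tested.

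Marco went from 362, 663 and 678 CPM to 174, 257 and 179 (-1.48, SE 0.27, edgeR adjusted p = 0.017), where the HSC-KO macrophages of the other table held 0.828 to 8.15. Its call was lost without replicate 2 or 3 of the Smad4FF group or replicate 1 or 3 of the Smad4 cKO group (edgeR adjusted p = 0.059 to 0.082), while its direction held in each. Cd163 went from 437, 480 and 447 CPM to 328, 232 and 287 (-0.69, SE 0.15, edgeR adjusted p = 0.032). That call, too, was lost without any 1 of the Smad4FF libraries or without replicate 3 of the knockouts (edgeR adjusted p = 0.073 to 0.104), and with the endothelial covariate (0.078). Msr1 was at 221, 195 and 183 CPM against 180, 160 and 235, with a log2 difference of -0.06 (interval -0.39 to 0.27, edgeR adjusted p = 0.88). Mrc1 was at 417, 400 and 446 CPM against 348, 220 and 340, lower in each knockout library but not past the threshold (-0.48, interval -0.84 to -0.11, edgeR adjusted p = 0.19).

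Scarb1 overlapped at 289, 325 and 321 against 314, 414 and 268 CPM (0.09, interval -0.25 to 0.43, edgeR adjusted p = 0.82). Scarf1 was at 40.2, 37.9 and 40.0 CPM against 27.1, 31.8 and 27.8, separate groups that did not pass (-0.45, interval -0.68 to -0.21, edgeR adjusted p = 0.067, and 0.042 without replicate 2 of the Smad4 cKO group). For Cd36, at 63.3, 31.5 and 58.2 against 25.5, 33.3 and 13.3 CPM, the log2 difference was -1.09 (interval -1.82 to -0.35, edgeR adjusted p = 0.14), and it passed in DESeq2's Wald test (-1.10, adjusted p = 0.019) but in no other alternative. The endothelial share of the Cd36 of ECs would come to 16.9 to 67.0 CPM in the controls and 57.6 to 78.2 in the knockouts, more than was measured in each knockout library. Lyve1, at 128, 29.2 and 101 CPM in Smad4FF and 108, 58.9 and 136 in Smad4 cKO macrophages, did not pass (0.23, interval -0.78 to 1.25, edgeR adjusted p = 0.85). Its lowest value was again that of replicate 2 of the Smad4FF group.

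**Figure D4:**
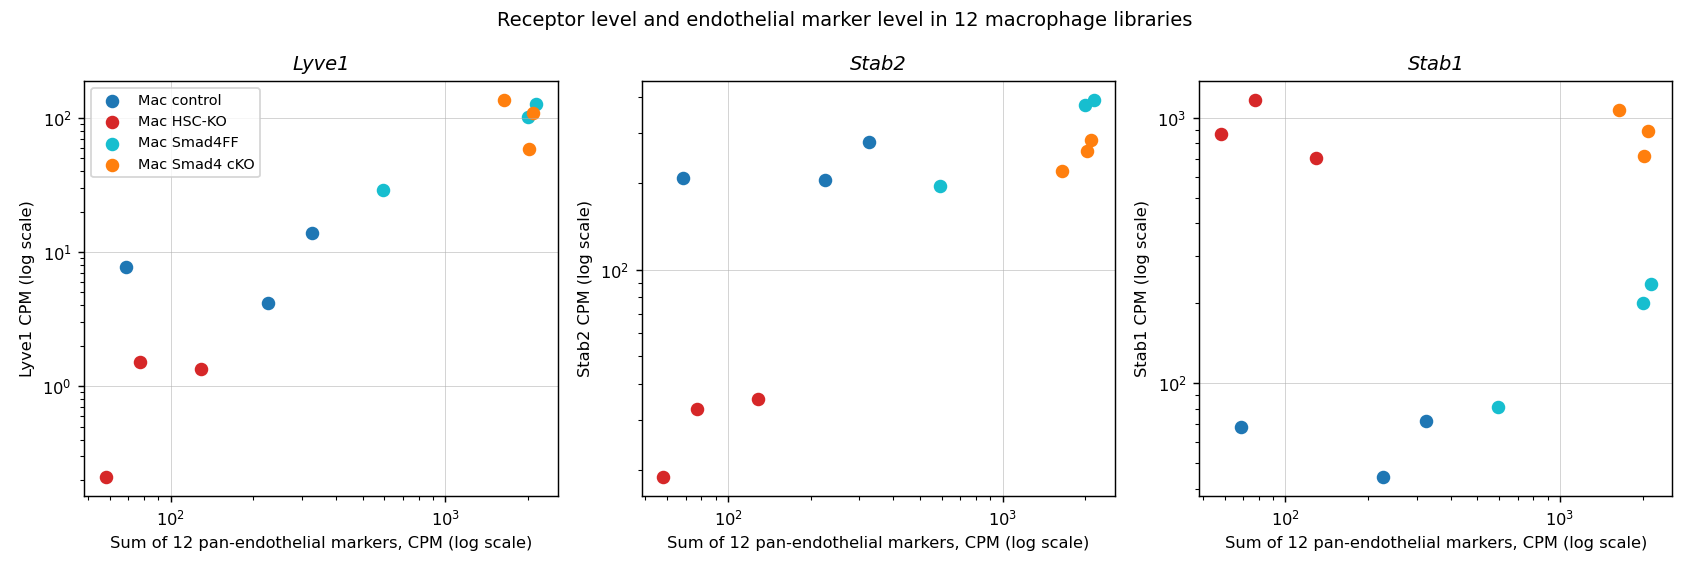
CPM (log scale) of Lyve1, Stab2 and Stab1 in the 12 macrophage libraries against the summed CPM of the 12 pan-endothelial markers (log scale). Lyve1 is at 0.210 to 13.8 CPM in the 6 libraries with at most 326 CPM of these markers and at 29.2 to 136 in the other 6, whereas Stab1 is above 700 CPM in the knockout libraries at both 58.0 to 129 and 1642 to 2094 CPM of these markers.

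When the 2 knockouts were set against each other over the 12 macrophage libraries, the fold change differed for 3 of the 10 receptors, all more negative in HSC-KO mice, against 2.61% of the 18149 genes tested in either direction and 1.18% more negative. The difference in log2 fold change, HSC-KO minus Smad4 cKO, was -5.17 for Marco (SE 0.90, edgeR adjusted p = 0.013), -2.62 for Stab2 (SE 0.40, edgeR adjusted p = 0.0057) and -1.28 for Msr1 (SE 0.21, edgeR adjusted p = 0.0099). For Stab1, which rose in both, it was 1.56 (interval 0.61 to 2.51, edgeR adjusted p = 0.12), and 1.84 without replicate 2 of the Smad4FF group (adjusted p = 0.033). Scarb1, at -1.002 (SE 0.25), narrowly missed the threshold (edgeR adjusted p = 0.053) and passed it in 5 of the alternatives. With the endothelial share taken off, mean Stab2 was 203 CPM in control and 29.4 in HSC-KO, 156 in Smad4FF and 61.4 in Smad4 cKO macrophages. Mean Stab1, treated alike, was 45.3, 938, 59.0 and 794 in the same order. How far this share enters the differences was not tested beyond the endothelial covariate. Each knockout had its own controls, and experiment and genotype cannot be told apart beyond that.

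The same ligand loss was then followed in ECs. Lyve1, the second of the EC receptors per kilobase, was almost lost, Stab1 and Mrc1 fell, and Scarb1 rose 7.63-fold in mean CPM to become, with Cd36, the highest of the 10 receptors per kilobase. Cd36 itself did not pass the test. In edgeR's quasi-likelihood test 6 of the 10 were DEGs, 1 higher and 5 lower, against 13.7% of the 16053 genes tested, and the groups did not overlap for 9, against 40.4% of all genes. Marco is in both counts, but it was at 0 in all HSC-KO ECs and passed the low-count filter through the controls alone. With at least 10 counts required in every library, Marco and Cd163 were not tested, and 5 of the other 8 were DEGs, against 1799 of 13428 genes. The median log2 fold change was -2.70 for the 10 and 0.00 over all genes tested. Macrophage transcripts fell alongside, all 12 of 12 markers without overlap and from a sum of 275 to 368 CPM to 69.2 to 111, with Fcgr1 at 0 in the HSC-KO ECs. The pan-endothelial sum was 17531 to 18259 CPM in control and 15980 to 17178 in HSC-KO ECs, with 5 of 12 markers higher and 4 lower without overlap. Of 6 hepatocyte markers 2 were lower without overlap, as was 1 of 6 stellate and mural cell markers. Of the 7 KC markers, which include the endothelial Cdh5, 5 were lower without overlap, and Clec4f, Fabp7, Timd4 and Vsig4 were at 0 in the HSC-KO ECs. The sum of 3 lymphatic endothelial markers was 3.11 to 6.82 CPM in control and 22.7 to 34.7 in HSC-KO ECs (2 of 3 higher without overlap), and that of the 4 monocyte and neutrophil markers 0.109 to 0.305 against 62.3 to 77.1 (1 of 4 higher, with S100a8 and S100a9 at 0 in both groups). In replicate 3 of the HSC-KO ECs, 3 of these 4 were at 0, so its 67.3 CPM came from 1 gene and not from the list. The part of all these marker shifts in the receptor changes was not tested. The macrophage share of the EC libraries was 0.0995 to 0.139% in controls and 0.0209 to 0.0287% in HSC-KO mice, and in control ECs such a share would give at most 0.0669% of the Mrc1, 0.00569% of the Stab1 and 0.277% of the Msr1 measured.

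Of the hyaluronan receptors, Lyve1 went from 621, 727 and 691 CPM in control ECs to 9.16, 5.21 and 6.48 in HSC-KO ECs, all 3 far below every control (log2 fold change -6.61, SE 0.27, edgeR adjusted p = 2.5e-05, and -6.86 without the library of animal B5). Stab2 went from 2401, 2155 and 2462 CPM to 952, 117 and 100. Every HSC-KO value was lower, but the library of animal B5 held far more than either of the others, and the change did not pass the test (-2.58, SE 0.84, edgeR adjusted p = 0.071). Without that library it was -4.43 (edgeR adjusted p = 4.7e-05). Stab1 went from 1701, 1555 and 1681 CPM to 389, 175 and 211 (-2.67, SE 0.31, edgeR adjusted p = 0.0012, and -3.09 without animal B5), the opposite direction to macrophages.

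Mrc1 went from 1328, 1533 and 1503 CPM to 321, 57.6 and 52.5 (-3.34, SE 0.72, edgeR adjusted p = 0.015), again with animal B5 the highest, and was at -4.72 without it. Msr1 showed the same order, 177, 282 and 143 CPM in controls against 33.99, 2.86 and 1.26 (-3.98, SE 1.15, edgeR adjusted p = 0.048). Its call was lost without any 1 of the control libraries or without replicate 2 or 3 of the HSC-KO group (edgeR adjusted p = 0.076 to 0.123), with no filter on low counts (0.052), with Xist as a covariate (0.070) and with the macrophage markers as one (0.70), so that it passed in 5 of 13 alternatives. Without the library of animal B5 the fold change was -6.61 (edgeR adjusted p = 0.00023). Marco had 18, 12 and 24 counts in the control and 0, 0 and 0 in the HSC-KO libraries, at least 5.89-fold lower when 3 counts in a library are taken as the limit of detection (edgeR adjusted p = 0.013). Without the library of animal B5 the adjusted p was 0.029, and without replicate 1 or 3 of the control ECs it was 0.051 and 0.056. Cd163 had 41, 9 and 19 counts against 0, 10 and 0 and did not pass (edgeR adjusted p = 0.24), except without replicate 2 of the HSC-KO ECs (adjusted p = 0.043), and the adjusted p was 0.39 without animal B5. In the control ECs the macrophage share would give 179 to 217% of the Marco and 96.1 to 327% of the Cd163 measured.

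The lipid receptors divided. Scarb1 went from 227, 185 and 235 CPM to 1173, 1685 and 2073, each far above every control (2.93, SE 0.25, edgeR adjusted p = 0.00030, and 3.12 without animal B5). Cd36 was at 835, 879 and 631 CPM in control and 677, 985 and 857 in HSC-KO ECs, which overlapped (0.10, interval -0.30 to 0.51, edgeR adjusted p = 0.78, and 0.24 without animal B5, adjusted p = 0.49). Scarf1, at 127, 137 and 158 against 107, 86.5 and 116 CPM, was lower in each HSC-KO library but did not pass (-0.45, interval -0.75 to -0.14, edgeR adjusted p = 0.086, and -0.47 without animal B5, adjusted p = 0.12). Per kilobase, the order in HSC-KO ECs was Cd36 (202 ± 35.8, SD, n = 3) and Scarb1 (167 ± 43.9), which overlapped, then Stab2 (38.9 ± 48.9), Scarf1 (30.9 ± 4.48), Stab1 (21.8 ± 9.95) and Mrc1 (19.7 ± 21.2), of which each overlapped its neighbour, and Lyve1 (2.06 ± 0.622) and Msr1 (1.75 ± 2.55). Without animal B5 the means were 221 for Cd36, 190 for Scarb1, 30.1 for Scarf1, 16.1 for Stab1, 10.7 for Stab2, 7.43 for Mrc1, 1.72 for Lyve1 and 0.28 for Msr1, so that Stab2 came after Scarf1 and Stab1.

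**Figure D5:**
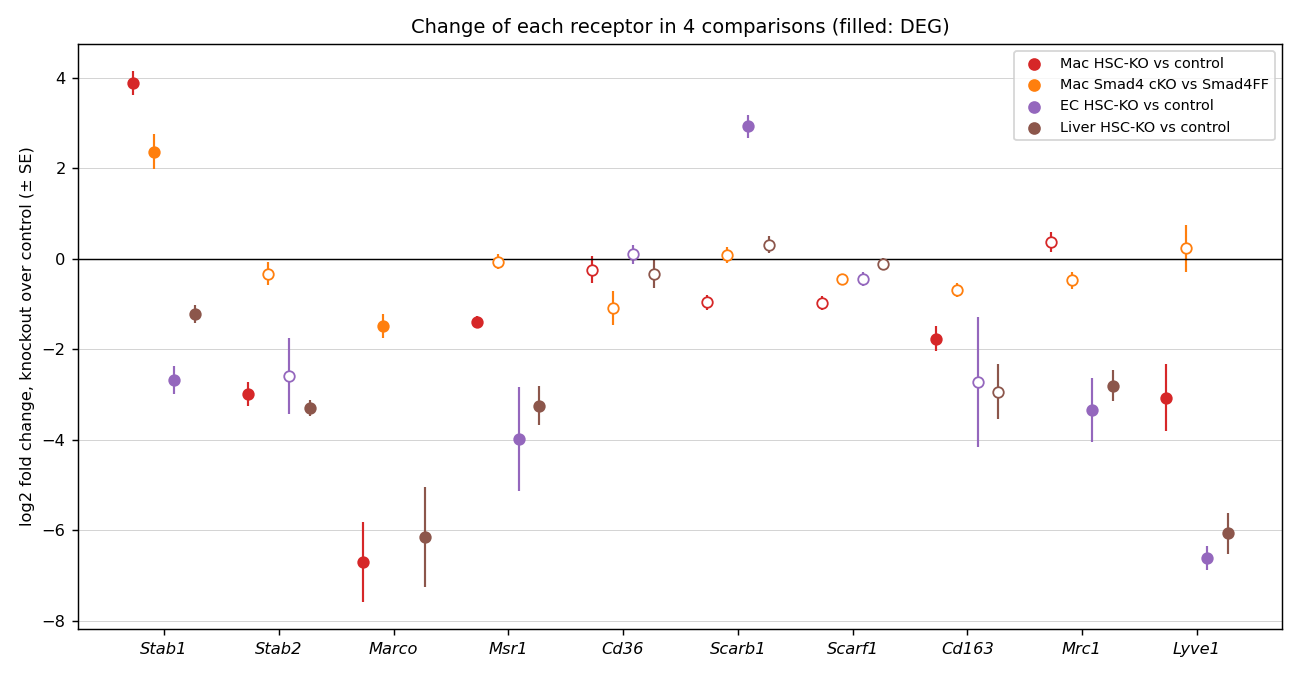
Log2 fold change (± SE) of each receptor, knockout over control, in macrophages of HSC-KO and Smad4 cKO mice, ECs and whole liver, with filled points for DEGs. Stab1 lies above 0 in both macrophage comparisons and below 0 in ECs and liver, Scarb1 is the only receptor that is a DEG upwards in ECs, and Marco in ECs is left out because all its knockout counts were 0.

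The difference between the cell types was tested as an interaction over the 12 libraries of macrophages and ECs of HSC-KO and control mice, in which animals B5, B26 and B27 each gave both a macrophage and an EC library. The fold changes differed for 4 of the 10 receptors (adjusted p below 0.05 and a difference above 1), 3 more positive in macrophages and 1 more negative, against 12.3% of the 18213 genes tested. Stab1 differed most, by 6.57 in log2 (macrophages minus ECs, SE 0.48, edgeR adjusted p = 1.2e-05), followed by Scarb1 with -3.88 (SE 0.31, edgeR adjusted p = 2.9e-05). Both receptors moved in opposite directions in the 2 cell types and passed the test in each. Mrc1 differed by 3.71 (SE 0.83, edgeR adjusted p = 0.012), and Lyve1, which fell in both, by 3.55 (SE 0.81, edgeR adjusted p = 0.013). The fall of Lyve1 in macrophages passed in 7 of 13 alternatives. The endothelial share would give 8.26 to 170% of the Lyve1 measured in control macrophages. Without both libraries of animal B5, an alternative added after the data were seen, these 4 passed with 7.16, -4.21, 5.26 and 3.55, and Msr1 (5.28, adjusted p = 0.00025) and Stab2 (1.28, adjusted p = 0.043) passed as well. Stab2 was at -0.41 in the full data (interval -2.31 to 1.497, edgeR adjusted p = 0.86), so its sign is not settled, and it also turned with all libraries kept and the animal as a random block in limma (0.41). The control libraries here are those of the comparison between control macrophages and control ECs as well.

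In whole liver, where hepatocytes make up most of the RNA, 6 of the 10 receptors fell and the other 4 did not pass the test. Stab1, Stab2, Marco, Msr1, Mrc1 and Lyve1 were the DEGs, against 2.48% of the 17118 genes tested in either direction and 1.45% lower. With at least 10 counts required in every library, Marco and Lyve1 were not tested, and 5 of the other 8 were DEGs, against 367 of 14756 genes. The groups did not overlap for 7 of the 10, against 19.7% of all genes, and the median log2 fold change was -2.87 for the 10 and -0.01 over all genes. Macrophage markers were lower in all 12 of 12 cases without overlap, with sums of 338 to 517 CPM in control and 127 to 212 in HSC-KO livers. The KC marker sum was 295 to 457 against 60.2 to 115 CPM, with 5 of 7 lower and 1 higher, and that of the 4 lymphocyte markers 3.37 to 6.37 against 0.683 to 2.07, with 2 lower. The pan-endothelial sum was 426 to 507 against 430.1 to 485, with 6 of its 12 markers higher and 4 lower. The 6 hepatocyte markers summed to 116312 to 142706 CPM in control and 150299 to 201493 in HSC-KO livers. The sum of 6 stellate and mural cell markers was 212 to 290 CPM in control and 400.6 to 460.3 in HSC-KO livers. Xist was high in 3 control and 2 HSC-KO livers, so the groups were not balanced by sex. What part sex and these shifts have in the changes below was not tested.

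Lyve1 went from 12.7, 14.4 and 10.8 CPM in control livers to 0.174, 0.309 and 0.0696 (log2 fold change -6.06, SE 0.45, edgeR adjusted p = 0.0010), 68.5 times between the means. Stab2 went from 86.0, 115 and 116 CPM to 12.7, 9.62 and 9.95 (-3.30, SE 0.18, edgeR adjusted p = 0.00035), with little spread in either group. Mrc1 went from 47.4, 98.5 and 83.9 CPM to 7.28, 14.4 and 11.2 (-2.81, SE 0.34, edgeR adjusted p = 0.0066). These 3 calls held without any 1 library. Msr1, at 12.5, 15.1 and 13.8 CPM in controls, was at 1.29, 2.42 and 0.655 (-3.24, SE 0.43, edgeR adjusted p = 0.010), and its adjusted p was 0.063 without replicate 1 of the HSC-KO livers.

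Stab1 was lower in all HSC-KO livers, at 39.3, 53.8 and 37.9 CPM against 79.3, 103 and 121 (-1.21, SE 0.20, edgeR adjusted p = 0.024). Whole liver thus followed the direction of ECs for Stab1, not that of macrophages. The call was lost without replicate 2 or 3 of the controls or replicate 1 or 3 of the HSC-KO livers (edgeR adjusted p = 0.052 to 0.116). Marco, at 8.02, 14.1 and 10.9 CPM in controls, had 0, 37 and 0 counts in HSC-KO livers (-6.15, SE 1.11, edgeR adjusted p = 0.033). Its call was lost without any 1 of the control livers or without replicate 1 of the HSC-KO livers (edgeR adjusted p = 0.083 to 0.123), with no filter on low counts (0.051) and in DESeq2's Wald test (adjusted p = 0.084), so that it passed in 4 of 10 alternatives. Cd163 was at 10.7, 23.4 and 20.2 CPM against 0.710, 2.01 and 4.39, lower without overlap but just outside the threshold (-2.93, interval -4.14 to -1.73, edgeR adjusted p = 0.055), and inside it in 4 of 11 alternatives, among them DESeq2's Wald test (adjusted p = 0.0034), a filter of at least 10 counts in every library (0.045) and the fit without replicate 3 of the HSC-KO livers (0.018), within a range of 0.0034 to 0.19.

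The lipid receptors showed no call in liver. Scarb1 was at 191, 190 and 148 CPM in control and 277, 190 and 192 in HSC-KO livers (0.32, interval -0.06 to 0.69, edgeR adjusted p = 0.59). Cd36 was at 69.0, 112 and 62.1 against 70.7, 81.1 and 40.5 CPM (-0.34, interval -0.93 to 0.26, edgeR adjusted p = 0.75), and Scarf1 at 18.6, 22.7 and 19.4 against 18.9, 20.2 and 17.3 CPM (-0.11, interval -0.36 to 0.15, edgeR adjusted p = 0.83). The 7.63-fold rise of Scarb1 in sorted ECs stood beside a ratio of 1.24 between the liver means. Hepatocytes are known to express Scarb1 and Cd36 as well.

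Related genes were read from 4 further lists. Of 13 other scavenger receptors, 9 passed the filter on low counts in HSC-KO and Smad4 cKO macrophages, 8 in ECs and 10 in liver. Colec12, a collectin receptor for oxidised LDL, was the 1 DEG of the 9 in each macrophage comparison, where 11.7% and 5.43% of all genes tested were DEGs (log2 fold change -4.20, edgeR adjusted p = 0.010, and -2.65, adjusted p = 0.0041), at means of 15.7 CPM in control and 0.857 in HSC-KO macrophages. In ECs, Scarf2 rose (3.33, edgeR adjusted p = 0.015), whereas Cxcl16, a membrane chemokine that binds oxidised lipoproteins, fell (-1.97, adjusted p = 0.019) and so did the lysosomal Scarb2 (-1.70, adjusted p = 0.00029). In liver only Scara3 of the 10 was a DEG (-1.95, edgeR adjusted p = 0.0068), where 2.48% of all genes were.

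Of 13 other endocytic receptors, 10 were tested in both macrophage comparisons. Sort1, a sorting receptor of the Golgi and endosome, rose from a mean of 1.09 to 49.2 CPM in HSC-KO macrophages (5.47, edgeR adjusted p = 0.00038) and from 2.98 to 63.0 in Smad4 cKO macrophages (4.403, adjusted p = 0.00013). Igf2r, the receptor for mannose-6-phosphate, fell in both (-3.33, edgeR adjusted p = 0.0063, and -2.83, adjusted p = 0.0087). In ECs it rose (2.16, edgeR adjusted p = 0.0014), as did Ly75 (5.43, adjusted p = 0.0041), whereas Pla2r1 (-2.98, adjusted p = 0.0087) fell. Mrc2, a collagen receptor of the MRC1 family, was the 1 DEG of 13 in liver (1.71, edgeR adjusted p = 0.018), against 2.48% of all genes.

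Of 22 genes of the clathrin route, 21 were counted. Ehd1 was left out because its symbol has more than 1 entry in the tables. In ECs 7 of them were DEGs, 2 higher and 5 lower, where 13.7% of all genes tested were DEGs: the membrane-remodelling ATPases Ehd2 (5.18, edgeR adjusted p = 7.4e-05) and Ehd4 (3.13, adjusted p = 0.00013) rose, and Ehd3 (-3.12, adjusted p = 0.011) and the adaptor subunit Ap2a2 (-1.49, adjusted p = 0.0047) were among those that fell. The median log2 fold change of the 21 in ECs was -0.57, beside 0.00 over all genes tested. In liver, Ehd2 (2.05, edgeR adjusted p = 0.012), Ehd4 (1.02, adjusted p = 0.0093) and Ehd3 (-2.32, adjusted p = 0.0045) were the 3 DEGs of 21, against 2.48% of all genes. In HSC-KO macrophages Dab2, a clathrin adaptor for lipoprotein receptors (1.79, edgeR adjusted p = 0.00043), and Ehd4 (1.13, adjusted p = 0.0039) rose, 2 DEGs of 21 against 11.7% of all genes. In edgeR's test of Smad4 cKO macrophages 0 of the 21 were DEGs, against 5.43% of all genes, and 2 passed the adjusted p alone, both upwards, against 7.74%.

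Of 20 ligands, adaptors and hyaluronan partners, 14 were tested in HSC-KO and 16 in Smad4 cKO macrophages. The hyaluronan receptor Cd44 fell in both (-2.58, edgeR adjusted p = 5.4e-05, and -1.28, adjusted p = 0.045). Hmox1, which breaks down the haem that CD163 brings in, fell in HSC-KO macrophages (-1.74, edgeR adjusted p = 0.0016), and so did the hyaluronidase Hyal2 (-1.35, adjusted p = 0.0021). Hmmr, a hyaluronan-binding protein of dividing cells, rose in Smad4 cKO macrophages (1.61, edgeR adjusted p = 0.041). In ECs, 2 of 17 were DEGs, where 13.7% of all genes tested were, the cell surface hyaluronidase Tmem2 (Cemip2), at -2.25 (edgeR adjusted p = 0.0021), and Gulp1, an adaptor that binds stabilin-1, at 3.21 (adjusted p = 0.0045). Tmem2 (-1.80, edgeR adjusted p = 0.0021), Cd44 (-2.56, adjusted p = 0.024) and Hmox1 (-1.58, adjusted p = 0.030) fell in liver, the 3 DEGs of 18, where 2.48% of all genes tested were DEGs. Without the library of animal B5, an alternative added after the data were seen, all 12 genes named for ECs from these lists were still DEGs in edgeR's test with the same sign, from Ehd3 (-4.17) and Pla2r1 (-3.96) to Ehd2 (5.35) and Ly75 (5.69), and the one with the highest adjusted p was Scarf2 (3.56, 0.016).

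Across the 24 libraries, each receptor was set beside the 8241 other genes whose log2 CPM averaged 3 or more (8242 for Marco, which lies under that level itself), as a description in which libraries of a group and tissue are not independent. Marco ran closest with Vsig4 (r = 0.97) and Timd4 (0.96), and Cd163 with Trpm2 (0.99) and the CSF1 receptor gene Csf1r (0.98). Stab2 ran closest with Cd55 (0.96) and Lyve1 (0.92), and Lyve1 with the sinusoidal lectin gene Clec4g (0.96) and Stab2. Stab1 was nearest to Hvcn1 and Lgals1 (both 0.95), Mrc1 to Dse and Gatm (both 0.97), and Msr1 to Cd84 (0.97) and Slc9a9 (0.96). Scarf1 was nearest to B3gnt3 and Epn2 (both 0.96) and Cd36 to Stim2 and Socs5 (both 0.94), while Scarb1 had Jup at 0.94 and then none above 0.84 (Cfap20).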

How the data were processed

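The files the authors deposited hold whole-number counts per gene, not normalized, which were made with FeatureCounts from HISAT2 alignments on mm10 (GRCm38). Versions, annotation release, strand setting and handling of multi-mapping reads are not given in the sources used here. For the library preparation the methods name an Illumina kit and the labels a Hieff NGS kit. In GENCODE vM21, exons of Stab1 overlap the opposite-strand Nt5dc2 over 112 bases and those of Stab2 the opposite-strand Gm16268 over 141 bases, so that without strand those reads cannot be told apart. The other 8 receptors overlap no exon of another gene.

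Groups came from the sample labels. In R 4.3.3, low genes were removed by edgeR 4.0.16 (filterByExpr with at least 10 counts and 15 in total) and the rest scaled with TMM factors and compared with edgeR's quasi-likelihood test over the libraries of each comparison, without covariates, with Benjamini-Hochberg adjustment over all genes tested. All 10 receptors passed the filter in every comparison. Differences of fold changes were interaction terms of the same test over 12 libraries. Tested on simulated counts with 200 genes changed by a log2 of 2, the test called all 200 in each comparison and 0 to 12 unchanged genes. The simulation gave every gene the same spread and changed only well counted genes. It therefore checks the procedure and does not show what share of such changes would be found in these libraries. CPM carry the TMM factors of their own table, also where values of different tables stand side by side. Levels per kb, patterns across libraries and tests across tables carry factors set over the libraries they use. Intervals are 1.96 SE to each side. The 1.96 is that of a normal distribution, whereas the test has few degrees of freedom with 3 libraries a group. These intervals are thus narrower than the test implies and can leave out 0 where its p does not pass. The share of another cell type in a library is the median, over its markers, of the CPM without TMM factors in the library over the mean in the sorted cells of the same genotype (control ECs for the Smad4 libraries). A group with at most 3 counts in every library was given a bound against 3 counts, and that bound covers counting error only. With 3 libraries a group, p values come only from fits over all genes, and they measure the spread between these samples.

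The receptors, the gene lists and the tests were chosen with earlier results of these data known. Named from each list were up to 4 DEGs per comparison with the largest change among those with a mean of at least 1 CPM, and for each receptor the 2 genes of nearest pattern. A gene that this rule names is not reported here. The alternatives were DESeq2 1.42.0, its size factors in edgeR, 2 other filters, each library left out, the replicate number as a block, endothelial or macrophage markers or Xist as covariates, Smad4FF in place of control macrophages, and limma 3.58.1 with the animal as a random block. No pair of libraries of a group agreed within sampling noise (chi-square per gene of 92.3 or more). Promoter windows are those of RefSeq for GRCm38.p6, and 6 of the 10 receptors were matched. Python 3.11.15 was used for tables and figures.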

Additional observations from a re-analysis of the deposited data

Results flagged for a closer look

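For 4 receptors the change with loss of the stellate ligands differed between macrophages and ECs by an interaction test. The log2 fold change in macrophages minus that in ECs was 6.57 for Stab1, -3.88 for Scarb1, 3.71 for Mrc1 and 3.55 for Lyve1. The same test between the HSC-KO and the Smad4 cKO macrophages separated 3 receptors, with a log2 fold change in HSC-KO minus that in Smad4 cKO mice of -2.62 for Stab2, -5.17 for Marco and -1.28 for Msr1. Endothelial transcripts were 8.12 to 11.04% of the EC level in Smad4 cKO macrophages and 0.0422 to 0.299% in HSC-KO macrophages. With the endothelial share taken off, mean Stab2 was 203 CPM in control and 29.4 in HSC-KO, 156 in Smad4FF and 61.4 in Smad4 cKO macrophages. The part of that share in the Stab2 difference was not tested beyond the covariate.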

How the results depend on the processing

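Of 973 values recomputed for the 10 receptors, 891 kept their direction and their side of the threshold, 43 lost a call, 24 gained one and 15 turned sign. Among the 518 for receptors that were called, 475 were kept, 43 lost the call and none turned. Leaving out 1 library at a time gave 5 to 7 receptors as DEGs in HSC-KO macrophages, 1 to 2 in Smad4 cKO macrophages, 4 to 7 in ECs, 3 to 6 in liver, 7 to 9 between the control cell types, 4 to 6 for macrophages against ECs and 3 to 4 for the knockouts against each other. The 1 in Smad4 cKO macrophages came without Smad4FF replicate 2 or 3 or Smad4 cKO replicate 1 or 3, and the 3 in liver without HSC-KO replicate 1. DESeq2 gave 7 receptors in place of 3 for the difference between the knockouts. With macrophage markers as a covariate, 0 receptors and 0 of the 16053 genes were called in ECs, where all 12 markers separate the groups.

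Same-numbered libraries correlated at -0.11 to 0.16. In ECs these values (0.103, 0.117 and 0.033) each exceeded the best of the other numbers (0.023, -0.057 and 0.015), and the other comparisons went both ways. Such low values do not settle whether the replicate numbers pair the samples. With the replicate number as a block, the DEGs among the receptors were 5 in HSC-KO macrophages, 2 in Smad4 cKO macrophages, 6 in ECs, 7 in liver, 9 between control cell types, 4 for macrophages against ECs and 3 between knockouts. The block took over all genes in liver from 425 to 271 DEGs, and Stab2 in ECs (-3.46, adjusted p = 0.031) and Cd163 in liver (-3.19, 0.024) passed with it, whereas Lyve1 in HSC-KO macrophages (0.083), Cd163 in Smad4 cKO macrophages (0.11) and Marco in ECs (0.081) lost their calls. Endothelial markers as a covariate took the genes that differed between knockouts from 473 to 179.

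The sign turned for Cd163 in ECs with macrophage markers as a covariate (24.53), and for Marco and Stab2 between macrophages and ECs with the animal as a random block (-2.10 and 0.41) and without animal B5 (-0.89 and 1.28). It turned on leaving out 1 library for Cd36 in ECs (-0.031 without control replicate 3 and -0.027 without HSC-KO replicate 2), Cd36 in HSC-KO macrophages (0.039), Marco between macrophages and ECs (-0.86 without macrophage HSC-KO replicate 3) and Stab2 there (1.45 without EC HSC-KO replicate 1). In Smad4 cKO macrophages it turned for Lyve1 (-0.19 and -0.040), Msr1 (0.0043 and 0.057) and Scarb1 (-0.10). None of these receptors was called in those comparisons with all libraries in edgeR, but Stab2 passed with its sign turned without animal B5 (adjusted p = 0.043) and without EC HSC-KO replicate 1 (0.020). The cause was not tested. Xist as a covariate was run only for HSC-KO against control mice in macrophages and ECs. It was planned for liver but not run there, where the groups do not both hold both sexes. Xist was high in 1 control and 2 HSC-KO libraries of macrophages, and likewise of ECs. In liver it was high in 3 control and 2 HSC-KO libraries, so sex was not balanced between the genotypes in any of these comparisons.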
